A study of Drosophila melanogaster with 2 samples.

Results

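The Cpr genes of Drosophila melanogaster encode cuticle proteins, and this account follows where the forkhead transcription factor fd59A was bound beside them in prepupae. They were taken as all protein-coding genes of the Ensembl annotation whose symbol begins with Cpr and continues with a number, which gave 70 of 13968 protein-coding genes. The chromatin came from whole prepupae of the transgenic strain fd59A-GFP, with males and females pooled and an age given in the labels as 24 day. This strain carries fd59A with green fluorescent protein at its C-terminal end, and the tagged protein was precipitated with an antibody against GFP. Both samples come from that 1 line and are biological replicates 2 and 3 of 1 group. There is no second genotype, treatment or time, no control library is among the samples, and the tagged copy stands in for the native protein. The labels do not give the promoter that drives the transgene or the number of animals in a pool.

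Cpr proteins belong to the largest family of insect cuticle proteins. They carry the Rebers-Riddiford domain, by which they bind chitin, and they are secreted by the epidermis, the trachea and other cuticle-forming cells into the layered matrix of the exoskeleton. In the prepupa the larval cuticle has become the puparium and the epidermis starts to lay down the pupal cuticle, under pulses of the steroid hormone ecdysone and the nuclear receptors that follow it, such as the competence factor FTZ-F1. Many Cpr genes are short and lie side by side in tandem groups, and the lower-case letter in a symbol such as Cpr72Ea tells such neighbours apart. fd59A is the FoxD protein of the fly and is known mainly from neurons, among them neurons that make octopamine. Whole animals hold all of these tissues, so the lists do not tell in which cells a region was bound.

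Of the 70 Cpr genes, 8 had an assigned peak in the IDR list. By its name, that list keeps the pooled peaks that passed a cut on the irreproducible discovery rate. That rate scores whether a peak recurs at a like rank when replicates are compared. By the authors' signal score, the lowest peak in the list had 106, and the highest assigned pooled region left out also had 106. A place in the list thus went with pooled signal, and does not by itself show a match in each replicate. Those 8 genes make up 11.4% of the family, beside 19.0% of all protein-coding genes. The 8 genes are Cpr51A, Cpr62Ba, Cpr65Ea, Cpr72Ea, Cpr72Eb, Cpr73D, Cpr100A and Cpr12A, and they took 10 of the 5327 IDR peaks. The other 62 had none. Each peak went to the gene whose transcription start site, among protein-coding genes, was closest to the summit and at most 10 kb off. Where genes share that site, each was credited.

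Sequences under some of the 10 peaks are shown first, because 2 of the 8 genes are neighbours in 1 tandem group and their windows can be read side by side. Each is the 101 bp centred on the summit, from the RefSeq Release 6 genome (dm6), plus strand, 5′ to 3′. Capitals mark a forkhead word, read on either strand, or the homeodomain word TAATTA.
Cpr72Ea, stronger peak, chr3L:16361344-16361444: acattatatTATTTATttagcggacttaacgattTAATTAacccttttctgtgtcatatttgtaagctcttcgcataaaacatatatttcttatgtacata
Cpr72Ea, weaker peak, chr3L:16362147-16362247: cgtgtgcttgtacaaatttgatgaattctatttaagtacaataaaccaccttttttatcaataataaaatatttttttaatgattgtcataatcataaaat
Cpr72Eb, chr3L:16364331-16364431: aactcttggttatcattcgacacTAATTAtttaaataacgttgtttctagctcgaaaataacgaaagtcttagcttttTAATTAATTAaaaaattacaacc
Cpr62Ba, chr3L:1829657-1829757: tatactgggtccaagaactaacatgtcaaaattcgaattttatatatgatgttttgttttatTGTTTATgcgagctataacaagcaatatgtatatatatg
Cpr100A, peak nearer to the gene, chr3R:30865581-30865681: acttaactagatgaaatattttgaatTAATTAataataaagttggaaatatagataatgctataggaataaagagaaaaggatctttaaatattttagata
Cpr12A, chrX:13542609-13542709: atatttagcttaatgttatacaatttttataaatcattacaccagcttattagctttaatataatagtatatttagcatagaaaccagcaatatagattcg
The forkhead words in capitals are the TATTTAT at the left of the stronger Cpr72Ea window and the TGTTTAT of Cpr62Ba. The Cpr72Eb window holds TAATTA 3 times, 2 of them overlapping, and the stronger Cpr72Ea window and the printed Cpr100A window hold it once each. The weaker Cpr72Ea window and that of Cpr12A hold neither. Not printed are the windows of Cpr51A, Cpr65Ea, Cpr73D and the farther Cpr100A peak. They hold no forkhead word, and only that of Cpr51A holds TAATTA.

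The strongest binding in the family was at the Cpr72E group on arm 3L, where Cpr72Ea, Cpr72Eb and Cpr72Ec lie within 4.74 kb. Its strongest peak (chr3L:16361192-16361555) had its summit 1209 bp upstream of the Cpr72Ea start site, in intergenic sequence, with a pooled signal of 843. The gene ringer, which is not a Cpr gene, lies on the other side of that peak and on the opposite strand. The peak is thus upstream of both genes, and it was assigned to Cpr72Ea because that start site is the nearer. Whether it acts on either gene was not tested. The signal is the authors' own score of peak height, which has no stated scale, and by it this peak ranked 191 of the 29208 regions called on the pooled replicates. Replicate 2 alone gave 351 at rank 227 of its 28127 regions, and replicate 3 alone gave 493 at rank 181 of its 30000. The summits of both replicates lay near the pooled one, at 2 bp and 37 bp from it.

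A second IDR peak of Cpr72Ea (chr3L:16361985-16362408) was much lower and closer to the gene, 406 bp upstream, inside the promoter window of 500 bp around a start site. Its pooled signal was 122 at rank 4555, with 59.8 in replicate 2 and 57.6 in replicate 3. Cpr72Eb, the next gene on the same strand, had 1 IDR peak (chr3L:16364347-16364520), 518 bp upstream of its start site and so just outside the promoter window. Its pooled signal was 479 at rank 699, with 166 in replicate 2 and 308 in replicate 3. The Cpr72Ea gene interval (chr3L:16362603-16363750) ends before that peak begins, so the peak lies in the gap between both genes. Cpr72Ec, on the opposite strand, had no assigned region in any list, and its start site was 2959 bp from the nearest IDR summit. Another pooled region of Cpr72Ea, 179 bp upstream of the start site, stayed below the IDR list with a signal of 85.7. It had a match in replicate 3, at 38.5, and none in replicate 2.

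**Figure D1:**
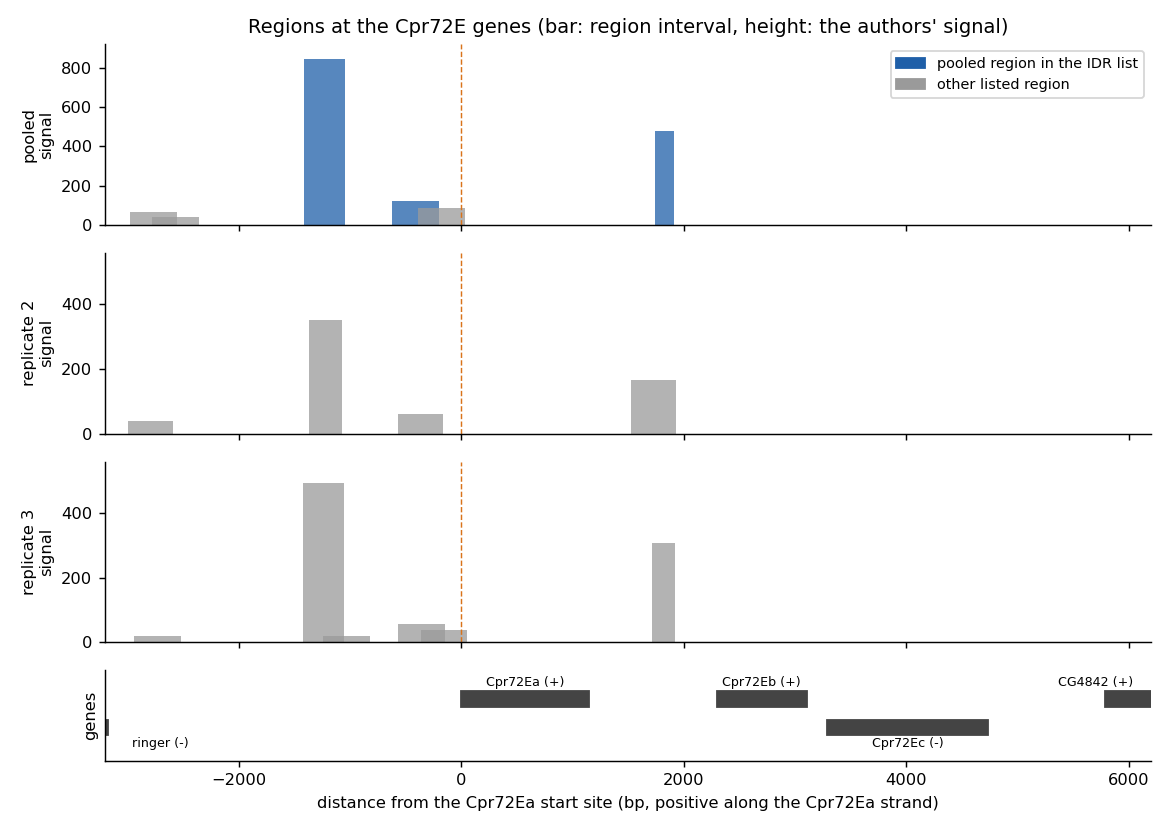
Regions at the Cpr72E genes, as bars that span each region and rise to the authors' signal, in the pooled list and in each replicate's list, against distance in bp from the Cpr72Ea start site, with gene intervals at the bottom. The bars upstream of Cpr72Ea and Cpr72Eb stand at 843 and 479 in the pooled list and are the tallest in each replicate too, and no bar lies at Cpr72Ec; replicate bars are grey whether or not they match an IDR peak.

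Cpr51A, a gene with no other Cpr gene near it, had the third strongest signal of the family. Its IDR peak (chr2R:14518098-14518521) lay in intergenic sequence 3099 bp upstream of the start site, the farthest of the 10. The pooled signal was 415 at rank 908, with 167 in replicate 2 and 234 in replicate 3. The other 4 pooled regions of Cpr51A had signals from 35.1 to 60.6, and none is in the IDR list.

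Cpr62Ba is the one gene of its group of 3, Cpr62Ba to Cpr62Bc over 18 kb of arm 3L, with an IDR peak. That peak (chr3L:1829495-1829918) lay 765 bp upstream of the nearer of its 2 annotated start sites and inside an intron of the longer transcript. The pooled signal was 225 at rank 2202, with 88.6 in replicate 2 and 131 in replicate 3. Cpr62Ba also had 6 weaker pooled regions, from 35.3 to 56.3. The neighbour Cpr62Bb had no region in any list. Cpr62Bc had 1 region in each replicate's own list and none in the pooled list.

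Cpr65Ea is likewise alone among the 3 genes of the 65E group, which spans 7.84 kb of arm 3L. The summit of its IDR peak (chr3L:7087357-7087780) lay 961 bp upstream of its start site and 1218 bp from that of Cpr65Eb, in the intergenic gap between both genes, and the peak runs into the end of the Cpr65Eb interval (chr3L:7087713-7088787). The pooled signal of 122 at rank 4570 was close to the lowest in the IDR list, 106. Replicate 2 gave 38 at rank 7363 and replicate 3 gave 84.0 at rank 3723, so this peak stood lower among the regions of replicate 2. Cpr65Eb had a single pooled region, at 33.4, which overlaps that peak, and Cpr65Ec had 2 regions in replicate 3 only.

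Cpr73D is a long single gene on arm 3L with 2 annotated start sites, and its IDR peak (chr3L:16941303-16941726) was the one of the 10 that lay downstream of the start site it was assigned to. The summit was 1434 bp downstream of the inner start site, in an intron, with a pooled signal of 195 at rank 2643. Replicate 2 gave 47.8 and replicate 3 gave 114, and the replicate 2 summit lay 90 bp from the pooled one, close to the limit of 100 bp for a match. Of the 31-base words in Cpr73D and 1 kb around it, 44.1% occur more than once on the main chromosome arms, and the part of such repeats in the peak was not tested.

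Cpr100A on arm 3R had a pair of IDR peaks, both intergenic and upstream. The farther one (chr3R:30864423-30864846) lay 2886 bp from the start site with a pooled signal of 168, and gave 79.0 in replicate 2 and 82.9 in replicate 3. The nearer one (chr3R:30865419-30865842) lay 1890 bp away with a pooled signal of 139, and gave 48.3 and 84.8. Replicate 2 alone thus put the farther peak higher, and replicate 3 gave both nearly the same signal. Cpr12A on the X chromosome had the weakest IDR peak of the family (chrX:13542447-13542870), 984 bp upstream, with a pooled signal of 110 at rank 5128. It gave 41.3 in replicate 2 and 67.4 in replicate 3. Cpr12A had 5 further pooled regions below the list, and those 2491 and 4031 bp upstream had signals of 103 and 98.1, just under the lowest IDR signal of 106.

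**Figure D2:**
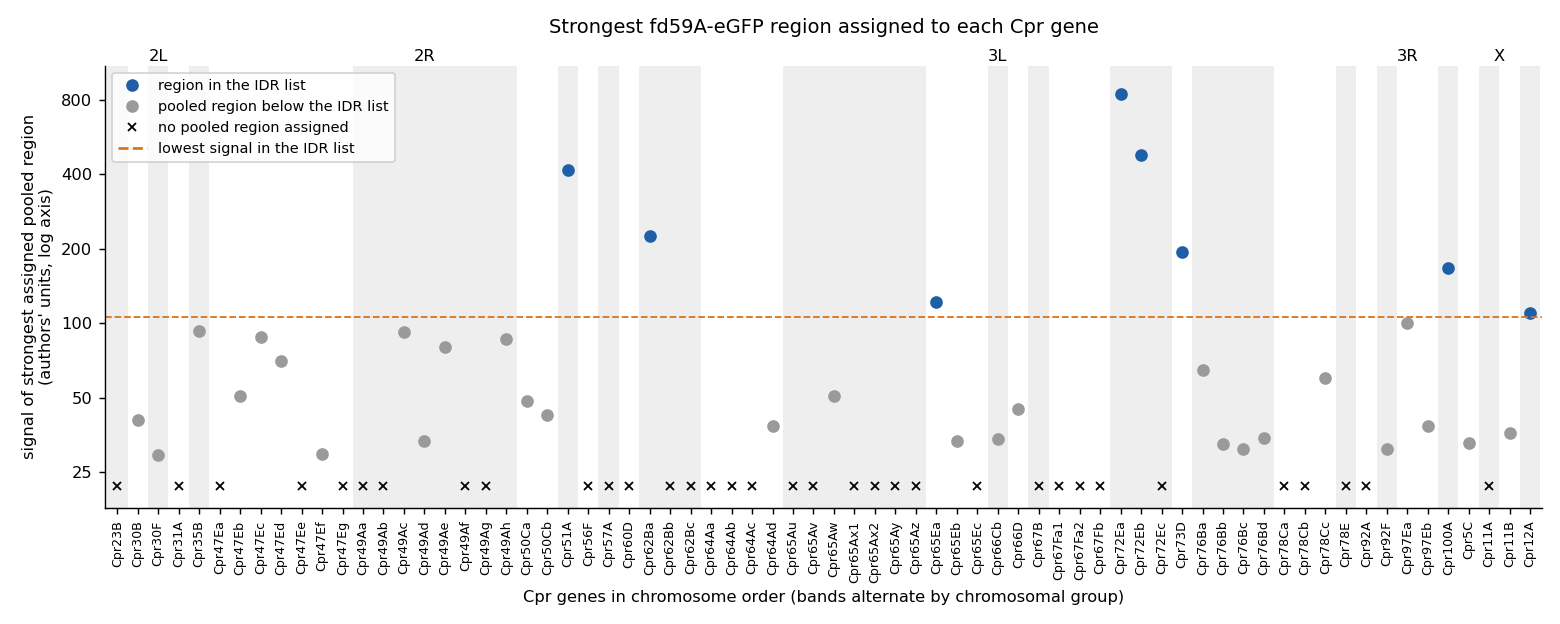
Signal of the strongest pooled region assigned to each of the 70 Cpr genes, in chromosome order, on a log axis in the authors' units; blue points are in the IDR list, grey points are below it, crosses mark genes with no pooled region, and bands alternate by chromosomal group. The 8 blue points lie on or above the dashed line at 106, the lowest IDR signal, led by Cpr72Ea at 843, and most genes are grey or crossed.

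All 10 Cpr peaks had a summit within 100 bp in both replicates' own lists, beside 92.6% of all assigned IDR peaks. Pooled signals of the 10 ran from 110 to 843 with a median of 181, and those of all assigned IDR peaks from 106 to 2996 with a median of 197. The Cpr peaks thus sat inside the range of the list, with a like median, and were spread from rank 191 to rank 5128. The signal was higher in the replicate 3 list at 9 of the 10, but the scales of the lists are not given, so this is not read as a difference between replicates. With 2 replicates and 1 group, no test of these differences was made.

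**Figure D3:**
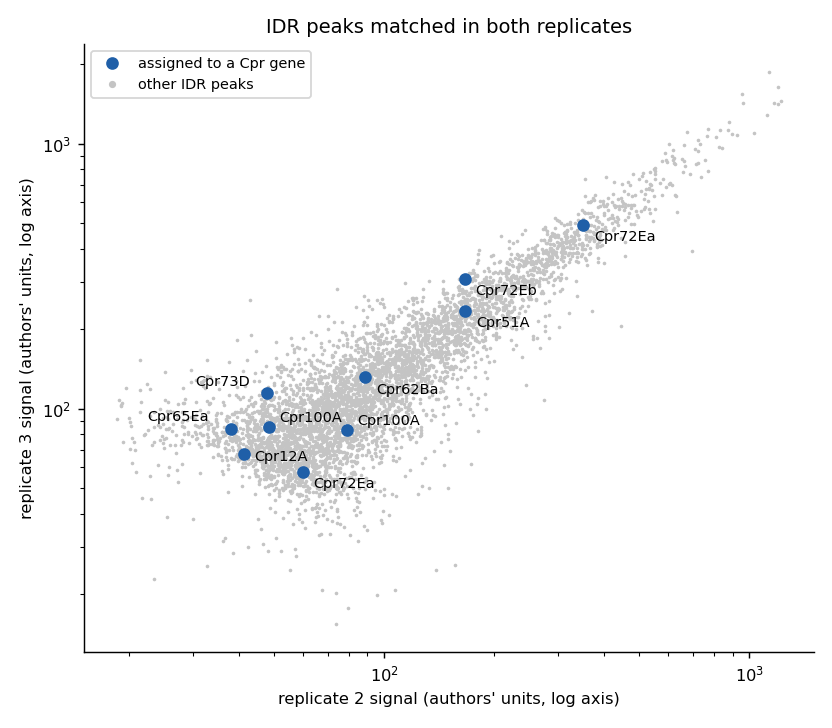
Signal in replicate 3 against signal in replicate 2 for the IDR peaks matched in both, on log axes in the authors' units, with the 10 Cpr peaks in blue. The Cpr peaks lie inside the cloud of the other peaks, with Cpr72Ea at 351 and 493 near its upper end and Cpr65Ea and Cpr73D toward the side of replicate 3.

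In position the Cpr peaks were mostly intergenic. Of the 10, 7 lay between genes (70.0%), 2 in introns and 1 in a promoter. Among all assigned IDR peaks, 16.4% were intergenic, 43.5% were in introns and 38.1% were in promoters. None of the 10 lay in a coding exon or a UTR. These classes were rare among all assigned IDR peaks too: 0.134% in coding exons, 0.538% in 5-prime UTRs and 0.650% in 3-prime UTRs. Sub-threshold regions, those in the pooled list and not in the IDR list, showed a like pattern in the family: 56.2% of its 73 were intergenic, 21.9% in promoters and 13.7% in introns, beside 21.6%, 23.6% and 41.8% of all 18545. These are shares of regions that share genes and neighbourhoods, and they were not tested.

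The family falls into 33 chromosomal groups when genes on 1 arm whose starts are at most 50 kb apart are joined. Of these, 12 hold at least 2 genes and 49 genes in all, and 21 hold a single gene. Among the 49 grouped genes 4 had an IDR peak (8.16%), and among the 21 single genes 4 did (19.0%), beside 19.0% of all protein-coding genes. Arm 3L held 35 members with 5 called, where 20.9% of all its protein-coding genes were called, and 2R held 21 with 1, where 17.6% were. The other arms held few members: 3R 5 with 1 called (17.5% of all its genes), the X 4 with 1 (22.4%) and 2L 5 with none (18.1%). IDR peaks thus reached 3 of the 12 tandem groups, those at 62B, 65E and 72E.

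The remaining 9 tandem groups had no IDR peak at any member, and they include the biggest ones. The 49A group, 8 genes over 38.5 kb of 2R, had a region in at least 1 list for 5 of its genes. Its strongest was at Cpr49Ac, 1295 bp from the start site, with a pooled signal of 92.7 at rank 6133, and with 57.1 in replicate 2 and 31 in replicate 3. The 47E group, 7 genes over 26.7 kb of 2R, had regions at 5, the strongest at Cpr47Ec with 88.3, matched in replicate 3 at 48.2 and unmatched in replicate 2. The 65A group, 7 genes over 30.3 kb of 3L, had regions at 3, and its strongest, at Cpr65Aw, reached 51.1. Signals in these 3 groups therefore stayed below the lowest IDR signal of 106. The share of all genes with a region in at least 1 list was not computed.

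Of the smaller groups, that at 97E came nearest to the list. Cpr97Ea had a promoter region 479 bp upstream with a pooled signal of 100 at rank 5674, and with 38.2 in replicate 2 and 58.9 in replicate 3. At 76B all 4 genes had a pooled region, the strongest at Cpr76Ba with 65.0. The strongest was at Cpr78Cc in the 78C group (60.1), at Cpr50Ca in the 50C group (48.6) and at Cpr64Ad in the 64A group (38.6). In the 67F group, 3 genes within 4.7 kb, no member had a region in any of the 4 lists. Among single genes, the strongest pooled regions of Cpr66D (45.0), Cpr30B (40.8), Cpr11B (36.1), Cpr66Cb (34.0), Cpr5C (33.0), Cpr92F (31.1) and Cpr30F (29.4) were all far below the IDR list. Cpr35B stood out for number, with 10 pooled regions and none in the IDR list. The strongest lay 7886 bp upstream, with 93.0 in the pooled list, 26.5 in replicate 2 and 61.1 in replicate 3. The genome nearest to the Cpr35B start site, within 10 kb, spanned 13930 bp, beside a median of 3364 bp for the Cpr genes. The part of that stretch in the number was not tested.

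In the pooled list, which holds peaks and background regions together, 36 of the 70 genes had a region (51.4%), beside 53.6% of all protein-coding genes. The lists of replicate 2 and replicate 3 also held regions for 36 genes each (51.4%), beside 57.8% and 51.7% of all genes. The family thus lay within a few percentage points of the background for regions of any strength. Of the genes with a pooled region, 22.2% of the Cpr genes and 35.4% of all genes had an IDR peak. Sub-threshold Cpr regions had a median signal of 43.0, from 29.3 to 103, and 41.1% were matched in both replicates. All assigned sub-threshold regions had a median of 40.5, and 30.8% were matched in both.

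For 23 of the 70 Cpr genes no list held a region. The share of all protein-coding genes without a region in any list was not computed, so this count has no background. Among the 23 were the single genes Cpr23B, Cpr31A, Cpr57A, Cpr60D, Cpr67B and Cpr11A, and the rest were spread over 8 tandem groups. Repeated sequence was measured at these genes. The share of 31-base words in each gene and 1 kb around it that recur on the main arms was at most 1% for 18 of the 23. It was above 10% for 5 Cpr genes in all, of which Cpr65Ax1 (70.2%), Cpr65Ax2 (71%) and Cpr65Au (12.9%) had no region. How reads that map to several places were treated is not given in the sources used here, and the part of repeats in these 3 genes was not tested.

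By the median, less genome lay nearest to a Cpr gene than to protein-coding genes in general. The stretch of genome whose nearest start site belongs to a gene, within 10 kb, had a median of 3364 bp for the Cpr genes (quartiles 2106 and 6896) and 4336 bp for all genes (2173 and 10027). When all genes were divided into 4 equal bins by this stretch, IDR peaks were assigned to 8.08% of all genes in the shortest bin, 12.8% and 19.2% in the next ones and 35.8% in the longest. Among the Cpr genes the counts were 0 of 19, 2 of 23 (8.70%), 5 of 20 (25%) and 1 of 8 (12.5%). The Cpr share was thus below the background in 3 bins and above it in 1, with few genes in each, and the part of the stretch in the family's count was not tested. The 8 called Cpr genes had a median stretch of 7555 bp and the other 62 one of 3138 bp. Cpr72Ea and Cpr72Eb, which had the strongest peaks, had short stretches, 2736 and 2368 bp.

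A measure that does not depend on which gene takes a peak gave the same order. An IDR summit lay within 10 kb of a start site for 27 Cpr genes (38.6%) and for 52.5% of all protein-coding genes. Within 1 kb it did so for 6 Cpr genes (8.57%) and 16.3% of all. The median distance from a start site to the nearest IDR summit was 14732 bp for the Cpr genes and 9024 bp for all genes on arms with IDR peaks. These distances were not tested, since tandem neighbours share them.

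**Figure D4:**
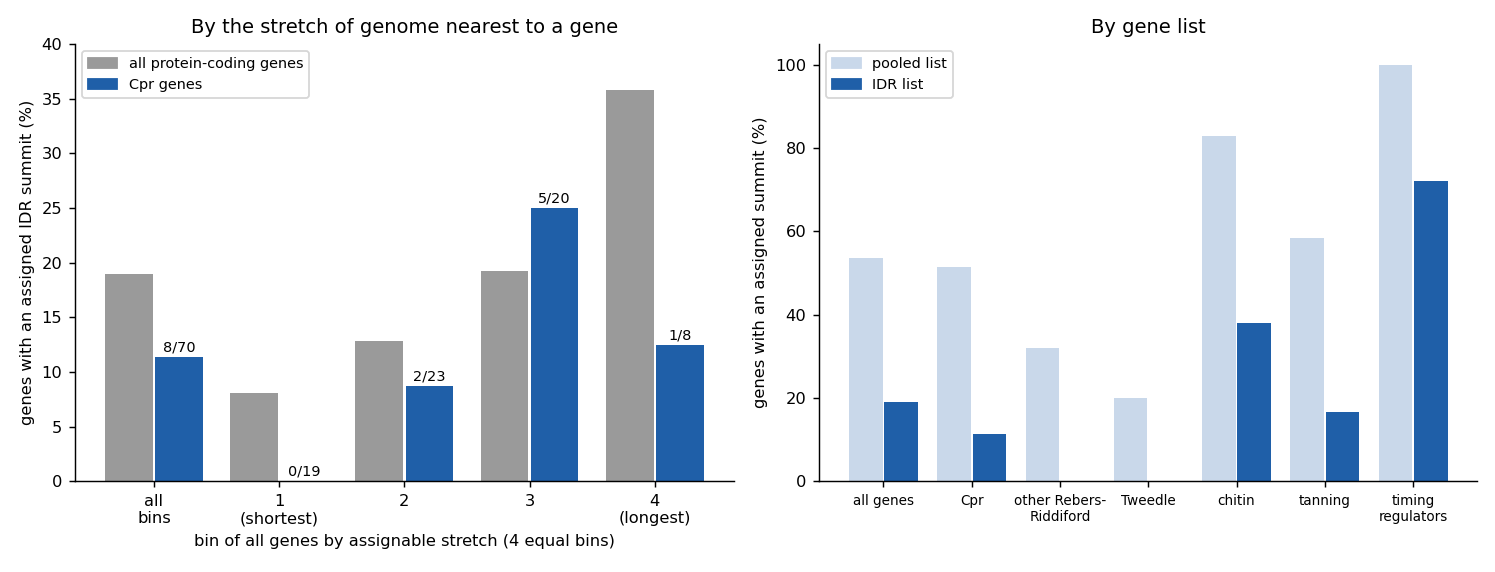
Percent of genes with an assigned summit, on the left in the IDR list for all protein-coding genes and Cpr genes, by bin of assignable stretch, and on the right in the pooled and IDR lists for each gene list. Numbers over the Cpr bars are genes called of genes in the bin; Cpr bars are below the grey bars except in bin 3 (25% beside 19.2%), and the cuticle protein lists other than Cpr have no IDR bar.

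Near the Cpr genes, 13 IDR summits within 10 kb of a start site were nearer to another gene, and 12 genes took them. The strongest, with a pooled signal of 1265 at rank 62, was in the promoter of CG11309, 3988 bp from the start site of Cpr78Cc. The promoter of Duox, which encodes a dual oxidase, had 882 at 7929 bp from Cpr23B. An intronic summit assigned to Pen, which encodes an importin alpha, had 713 at 3218 bp from Cpr31A. Cpr23B and Cpr31A had no region in any list, and these strong peaks within 10 kb of them were nearest to start sites of Duox and Pen. The other 10 signals ran from 109 to 179, and 7 of those 10 peaks lie beside Cpr genes that have no IDR peak. The rest lie inside the intervals of called members. In the Cpr51A interval is a CG30197 promoter peak of 133, at 1475 bp from the Cpr51A start site and matched in replicate 2 only. In the Cpr73D interval is a pair of peaks assigned to Ogdh, at 127 and 135, the first without a match in either replicate.

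Short words bound by known factors were counted under the Cpr peaks, beside their share in all IDR windows. In the 101-bp windows, on both strands, any of the forkhead words GTAAACA or ATAAACA or GTCAACA or ATCAACA or GTAAATA or ATAAATA was in 2 of 10, at Cpr62Ba and the stronger Cpr72Ea peak, beside 22.8% of all 5327 IDR windows. The core TAAACA, which is part of GTAAACA and ATAAACA, was in 1, at Cpr62Ba, beside 12.7%. TAATTA was in 4, at Cpr51A, Cpr72Ea, Cpr72Eb and Cpr100A, beside 9.89%. GATA words (AGATAA or TGATAA or AGATAG or TGATAG) were also in 4, at Cpr51A, Cpr100A, Cpr72Eb and the weaker Cpr72Ea peak, beside 22.8%. The FTZ-F1 word CAAGGTCA and the AGGTCA inside it were in none of the 10, beside 0.188% and 1.88%, and GAGAG was in none, beside 10.2%. A word is a run of letters in this window and no measure of binding by the factor. The Cpr windows had a median GC content of 25.7%, from 18.8% at the nearer Cpr100A peak to 41.6% at Cpr65Ea, and all IDR windows had a median of 32.7%. TAATTA is made of A and T alone, and the part of base composition in its count was not tested.

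Other cuticle genes give the setting. No IDR peak was assigned to any of 28 other genes of Rebers-Riddiford proteins, such as the Lcp and Ccp84A larval and pupal cuticle genes, or of 25 Tweedle genes, a separate cuticle protein family, and 9 and 5 of them had a pooled region. Their median assignable stretches were short, 1895 and 2588 bp. Cpr members thus hold all the IDR peaks found in these 3 sets of structural cuticle genes. Few genes with short stretches had an IDR peak in general. In the shortest bin of stretch, 8.08% of all genes and 0 of 19 Cpr genes had one. In the next bin, 12.8% of all genes and 2 of 23 Cpr genes did. Whether the 3 sets differ beyond their size and stretch was not tested. Of 29 genes for chitin synthesis, assembly and turnover, 11 had an IDR peak (37.9%), led by the chitinase gene Cht7 with a signal of 496 and the chitin-binding protein gene Gasp with 364. Of 12 tanning genes, 2 did (16.7%): y, whose product acts in black melanin formation, at 148, and Ddc, dopa decarboxylase, at 123. Of 18 regulators of cuticle gene timing, 13 did (72.2%), with 46 peaks. Hr4, a nuclear receptor gene, led with 1036, at a summit 9979 bp from the start site and just inside the limit of 10 kb. Eip93F, an ecdysone-induced regulator of later stages, followed with 967, at a summit 7576 bp from the start site. These chitin and timing genes have far more genome nearest to them, with medians of 11094 and 28766 bp, and the lists were not tested against each other.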

How the data were processed

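Peak lists of 2 fd59A-GFP ChIP-seq samples, replicates 2 and 3 of 1 group, were used; per the labels, chromatin was sonicated to 200 to 800 bp. The authors deposited, for build dm6, a list of peaks and background regions per replicate, one called on both replicates together, and a list of pooled peaks thresholded by IDR. A control file is among the inputs of the lists, per the file descriptions. Peak caller, version, scaling and IDR threshold are not stated in the labels or files. The dm3 lists were not used.

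Per the labels and file layout, each region has a signal (the authors' score of height, used to rank and describe), a −log10 q value, which the authors deposited per peak and which ran from 2.73 to 3.93 over the Cpr peaks, and a summit offset. The lists hold no read totals. Depth and counting error are therefore unknown, and no interval was computed.

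Summits were assigned with Ensembl release 115 models (Python 3.11.15, numpy 2.4.6, figures with matplotlib 3.10.9). A summit was classed as promoter up to 500 bp from a transcript's start, otherwise by the feature it fell in (UTR before coding exon before intron before noncoding exon), and else as intergenic. Replicate regions were matched within 100 bp of the summit. The assignment code was tested on planted summits. No p-value was computed: there is 1 group, and peaks and genes are not replicates. Every Cpr gene with an IDR peak was named, with the strongest sub-threshold gene of each group and called members' neighbours, the 2 strongest genes of each related list, and genes taking nearby peaks; beyond that rule, single genes named for having no region, many regions or repeats were chosen after their values were seen, as was the choice of windows printed. The Cpr genes and the related lists were chosen with earlier results of these data known. Of 15 tanning symbols 12 matched. Alternatives varied distance, start sites, gene span, list length, match distance, group gap and replicates.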

Additional observations from a re-analysis of the deposited data

How the results depend on the processing

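The count of 8 Cpr genes with an IDR peak (11.4%), beside 19.0% of all genes, stayed at 8 under the next alternatives. The share of all genes was 17.2% within 5 kb, 19.8% within 20 kb and 18.9% with 1 start site per gene. No Cpr peak lay farther than 3099 bp from its start site, so the 5 kb limit could not change the Cpr count. The 20 kb limit could only add genes. The share of all genes was 22.6% with gene spans widened by 1 kb, which added Cpr65Eb and dropped Cpr100A. In that setting the stronger Cpr72Ea peak (843) and the Cpr51A peak (415) fell outside the span of every Cpr gene. Cpr51A was kept through the CG30197 promoter peak (133) inside its interval. Cpr72Ea was kept through its weaker peak and that of Cpr72Eb. Within 1 kb the count fell to 5 genes with 5 summits, beside 12.3% of all genes. The stronger Cpr72Ea peak, at 1209 bp, and the Cpr51A peak, at 3099 bp, were lost, and Cpr72Ea stayed by its weaker peak. With the 1 kb limit the pooled list reached 23 Cpr genes, and the share of all genes was not computed for it. The stronger part of the IDR list, cut at its median rank, left 5 Cpr genes with 5 summits, beside 11.3% of all genes, and the 1000 strongest peaks left 3 with 3, beside 5.18%. Those 3 are Cpr51A, Cpr72Ea and Cpr72Eb. In each of these settings the share of Cpr genes was below that of all genes.

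Taking as many of the strongest regions from 1 replicate alone gave 8 to 9 Cpr genes: without replicate 2, all 8 plus Cpr35B, and without replicate 3, 7 of the 8 plus Cpr49Ac, with Cpr65Ea lost. These are 12.9% and 11.4% of the Cpr genes, beside 19.4% and 18.3% of all genes. Matching within 50 bp left 7 of the 10 peaks with a match in both replicates, and a wider limit, or overlap, gave all 10. Of 72 recomputed values for single genes, 51 stayed within 1.5 times. No paired analysis was possible because there is 1 group and no test.

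Depth is unknown, so absence of binding and lack of coverage cannot be told apart at a gene without a region. No control library was analysed here, and the antibody, the tag and the cells of origin were not checked. A summit's nearest gene need not be the gene it acts on.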
